A study of Mus musculus with 16 samples.

Results

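The cytosolic ribosomal protein genes encode the proteins that, with ribosomal RNA, build the large (Rpl) and small (Rps) subunits of the ribosome outside mitochondria. They were taken from the count table by name: Rpl or Rps followed by digits and at most 1 letter, together with Rplp0, Rplp1, Rplp2 and Rpsa, without pseudogenes marked -ps and without the Rps6k kinases. Among 57010 genes in the table, such a name was found for 83, and 80 of them passed a minimum of 5 counts in 8 or more of the 16 libraries. These 80 genes, 48 of the large and 32 of the small subunit, lie on 19 chromosomes, 4 of them on the X chromosome. The other 3 names were Rpl10l, with 1 count over all libraries, Rpl3l with 14 and Rpl39l with 69. The choice used no expression difference, only a minimum count. In the reference annotation 78 of the 80 are protein-coding, while Rpl6l and Rpl32l are processed pseudogenes. The naming rule also left out genes such as Rps3a1, Fau and Rack1, which encode ribosomal proteins under other names and are described with the related genes.

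Every cell needs ribosomes, and their proteins are made in near-equal amounts, so these genes are usually expressed together. Many of their mRNAs begin at a C and carry a run of pyrimidines at the 5′ end, the terminal oligopyrimidine (TOP) motif, through which mTORC1 and the protein LARP1 regulate their translation. That regulation acts on translation more than on mRNA level, and only mRNA level was measured here.

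Microglia were isolated from the olfactory bulb (OB) with CD11b magnetic beads, and rRNA-depleted total RNA was sequenced in 16 libraries. WT mice (C57BL/6J) were compared with APP-NL-G-F mice, in which the mouse App gene holds a human amyloid-beta sequence with 3 familial Alzheimer's disease changes, named Swedish (NL), Arctic (G) and Iberian (F), so that App is driven from its own locus without a transgene promoter. All mice were 2 months old, and each genotype was represented by 4 female and 4 male libraries. The comparison asks how OB microglia differ in the knock-in at this age. Nothing in the labels names the animals, so p-values measure the spread between these libraries.

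The libraries held 9052932 to 18117286 counts, and 191103 to 464735 of them fell in the ribosomal protein genes. The summed level of 15 microglia markers was 25219 to 30348 CPM (counts scaled to the same TMM-adjusted library total) in every library, against 785 to 1890 CPM for 15 neuron markers, 490 to 1184 CPM for 8 astrocyte, 236 to 437 CPM for 8 oligodendrocyte, 352 to 711 CPM for 6 border macrophage, 112 to 196 CPM for 10 neuroblast and 63.9 to 213 CPM for 8 endothelial markers. It was 5.26 to 8.62 CPM for 7 lymphocyte markers and 0.0838 to 3.51 CPM for 5 red blood cell markers. At an FDR below 0.1, 6 of 10 neuroblast, 3 of 8 oligodendrocyte and 9 of the 15 neuron markers were higher in APP-NL-G-F, the last with summed levels of 1004 to 1890 CPM against 785 to 1292 CPM in WT. Of 13 immediate early genes 12 were called lower, with summed levels of 3066 to 7245 CPM against 7016 to 16330 CPM. Results of fits with the neuron marker level as a term are given below. The part of the other markers and of the immediate early genes in the results below was not tested. In bulk samples, fewer cells of a type and less RNA per cell cannot be told apart.

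The 5′ ends show what many of these genes share and the naming rule did not use. RefSeq promoter sequences were at hand for 58 of the 80 genes, and the stretches shown here run from 10 bases before to 20 bases after the RefSeq start, read on the transcribed strand, with the longest run of C and T in capitals. The first 5 were chosen for a long run at the start and the last 2, Rpl10 and Rps3, as a contrast, since their longest runs there are 3 and 2 bases. Of the stretches shown, only that of Rpl15 holds the start of the gencode transcript chosen for the gene. For Rpl10 that start is at 73314456 and for Rps3 at 99132945, so the contrast holds for the RefSeq starts only. All positions are those of an exact match in GRCm39.
Rps6 (chr4:86775585-86775614, minus strand): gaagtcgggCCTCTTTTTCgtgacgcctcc
Rpl28 (chr7:4795954-4795983, plus strand): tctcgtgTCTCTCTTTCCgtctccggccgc
Rpl35 (chr2:38895124-38895153, minus strand): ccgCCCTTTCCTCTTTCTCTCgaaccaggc
Rpl15 (chr14:4198700-4198729, plus strand): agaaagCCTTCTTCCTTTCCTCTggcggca
Rps18 (chr17:34174620-34174649, minus strand): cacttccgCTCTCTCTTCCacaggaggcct
Rpl10 (chrX:73314412-73314441, plus strand): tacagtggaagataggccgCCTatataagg
Rps3 (chr7:99132897-99132926, minus strand): aagggTCgccgcgctgcgcggcgtcattgc

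A run of 8 or more C and T bases within 50 bases of a start was present in 50 of the 58 genes (86.2%), against 39.3% of all 27025 genes with a promoter sequence, 42.7% of the 2187 tested genes with a mean log2 CPM above 6, and 33.8% of 68 mitochondrial ribosomal protein genes. Within 15 bases of the start the shares were 46.6% of the ribosomal protein genes, 18.1% of the tested genes above that level and 13.9% of all genes. The letters CTTTCC on the transcribed strand occurred within 50 bases of the start in 31.0%, against 5.43% of all genes, and the letters CTCTTTC in 20.7%, against 1.62%; these 2 can overlap each other and lie inside a pyrimidine run. CCGGAAG, on either strand of the 300 bases, occurred in 41.4%, a share not far from the 36.8% of mitochondrial ribosomal protein genes. It was in 18.5% of the tested genes with a mean log2 CPM above 6 and in 9.93% of all genes. GGGCGG, on either strand, was in 60.3%, against 76.1% of those tested genes and 38.2% of all genes. AAGATGGC was in 8.62%, against 6.49% and 3.19%. TATAAA was in the 50 bases before the start of 0 of the 58 genes, against 2.29% of the tested genes above that level and 3.15% of all genes. In Rpl36a these letters lay just after the RefSeq start, outside that window. A match of letters is a description of the window and does not show that a factor binds there.

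The genotype comparison found no ribosomal protein gene changed. With edgeR's quasi-likelihood test and sex as a term, 0 of 80 genes passed both limits, an FDR under 0.1 and a log2 fold change beyond 0.5 in either direction, while 8.64% of all 18227 tested genes did. FDR alone called 0 of 80, against 14.8% of all tested genes. Even an unadjusted p under 0.05 was reached by 0 of the 80, whereas 24.1% of all tested genes and 22.9% of the 2731 genes above a mean log2 CPM of 6 reached it. DESeq2 found 0 and limma voom 1 of the 80 under that unadjusted limit, and neither tool found any at an FDR below 0.1. For none of the 80 genes were the 8 APP-NL-G-F libraries all above or all below the 8 WT libraries. The share of all tested genes without such overlap is not given here, so this count has no background beside it.

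The measured differences were small. The median log2 fold change (APP-NL-G-F over WT) of the 80 genes was -0.018, with quartiles of -0.030 and 0.006. Over all tested genes the median was -0.001 and the quartiles -0.105 and 0.159. The median standard error was 0.054 for the ribosomal protein genes and 0.123 for all genes. The 95% interval of the difference lay within 0.25 of 0 on the log2 scale for 74 of the 80 genes and within 0.5 for 76. The 4 genes with wider intervals, Rpl24, Rps10, Rpl6l and Rpl32l, had 69 to 244 counts over all 16 libraries. The large subunit had a median of -0.010 (18 of 48 genes above 0) and the small subunit of -0.019 (9 of 32 above 0). The direction of the overall median was not stable: it was 0.022 without WT male replicate 2 and 0.052 with the neuron marker level as a term.

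**Figure D1:**
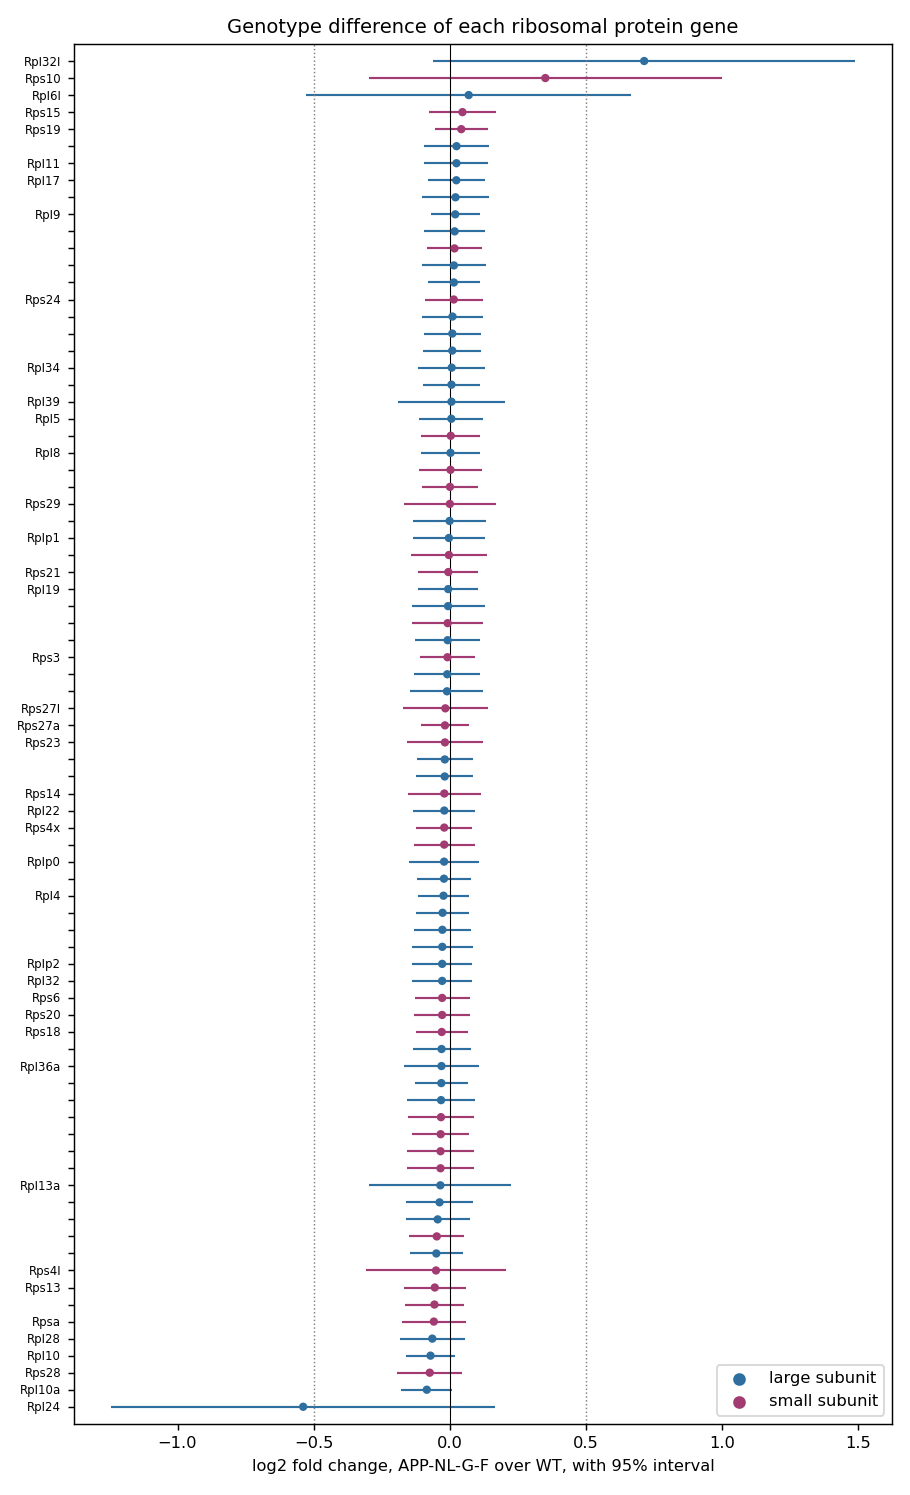
Log2 fold change of each of the 80 genes between 8 APP-NL-G-F and 8 WT libraries (points) with its 95% interval (lines), in order of size, with names for genes described in the text; dotted lines mark the fold change threshold of 0.5. For 76 genes the interval lies between the dotted lines, and the 4 wide intervals belong to genes with few counts.

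The stalk proteins recruit elongation factors to the large subunit. Rplp1 was at 912 to 1263 CPM in WT (median 1087) and at 1019 to 1215 CPM in APP-NL-G-F (median 1092). The groups overlapped, and the log2 fold change was -0.003 (SE 0.06, adjusted p = 0.989). Rplp0, which anchors the stalk, ran from 582 to 764 CPM in WT libraries and from 595 to 749 CPM in APP-NL-G-F, a log2 fold change of -0.02 (SE 0.06). Rplp2 gave -0.03 (SE 0.05), with 634 to 796 CPM against 645 to 754 CPM.

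Among small-subunit proteins with a known signalling link, Rps6, the target of the S6 kinases, was at 181 to 213 CPM in WT (median 194) and 177 to 214 CPM in APP-NL-G-F (median 191). Its log2 fold change was -0.03 (SE 0.05). Rps27a, made as a fusion with ubiquitin, gave -0.02 (SE 0.04), the smallest standard error of the 80, with 252 to 300 CPM against 254 to 292 CPM. Rpsa, also known as a laminin receptor, was at 558 to 751 CPM in WT and 563 to 703 CPM in APP-NL-G-F, a log2 fold change of -0.06 (SE 0.06). Rpl5 and Rpl11, which with 5S rRNA bind Mdm2 when ribosome assembly is disturbed, gave 0.01 (SE 0.06) and 0.02 (SE 0.06). The ranges of the genotypes overlapped for each of these genes.

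The 4 genes on the X chromosome were tested with the rest. Rps4x gave a log2 fold change of -0.02 (SE 0.05), Rpl36a of -0.03 (SE 0.07) and Rpl39 of 0.01 (SE 0.09). Rpl10, which joins the large subunit late in its assembly, was at 414 to 477 CPM in WT (median 428) and 378 to 463 CPM in APP-NL-G-F (median 406). It gave -0.07 (SE 0.04, adjusted p = 0.35). Between female and male libraries Rps4x differed by -0.04 (SE 0.05) on the log2 scale, female minus male. Of genes used as reference for qPCR, Rpl13a gave a genotype difference of -0.03 (SE 0.12), Rps18 of -0.03 (SE 0.05), Rpl32 of -0.03 (SE 0.05) and Rpl4 of -0.02 (SE 0.05).

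The genes nearest to the threshold were named by the smallest p in each direction. Rpl10a, a large-subunit protein, was at 114 to 128 CPM in WT (median 119) and at 103 to 126 CPM in APP-NL-G-F (median 114). Its log2 fold change was -0.08 (SE 0.04, adjusted p = 0.263), and an exact permutation of genotype within sex gave a two-sided p of 0.0604, where 4900 splits allow a smallest p of 0.000408. Without APP-NL-G-F male replicate 3 its log2 fold change was -0.10 and its adjusted p 0.0842, which is under an FDR of 0.1 but short of the fold change threshold. Next on that side were Rpl10, Rpl24 at -0.54 (SE 0.34, from 69 counts in all), Rps28 at -0.07 (SE 0.06) and Rpl28 at -0.06 (SE 0.06). On the other side stood Rpl32l, Rps10 at 0.35 (SE 0.31, from 195 counts), Rps19, Rps15 and Rpl17 at 0.02 (SE 0.05). Rpl32l, the pseudogene, was at 0 to 0.684 CPM in WT and 0.334 to 0.897 CPM in APP-NL-G-F, a log2 fold change of 0.71 (SE 0.37, adjusted p = 0.252) from 95 counts in all. Rps19 and Rps15, the next protein-coding genes with high counts, gave 0.04 (SE 0.05) and 0.05 (SE 0.06). Across the 80 genes the lowest exact permutation p was 0.0514.

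Within females, 0 of 80 genes passed both thresholds, against 7.15% of all tested genes, and by FDR alone 0 against 9.42%. An unadjusted p under 0.05 was reached in females by 0 genes in edgeR and DESeq2 and by 1 in limma voom. Of all tested genes 20.8% reached it in edgeR. Within males 0 of 80 were called, against 0.252% of all tested genes (0.269% by FDR alone), and the 46 genes behind that share became 5 without APP-NL-G-F male replicate 2, 218 without its replicate 4 and 603 without its replicate 3. In males the unadjusted limit was reached by 1 gene in edgeR, 0 in DESeq2 and 2 in limma voom, against 11.7% of all tested genes in edgeR. The interaction of genotype with sex called 0 of 80, against 0.0274% of all genes. An unadjusted p under 0.05 was reached by 2 of the 80, also in DESeq2 and limma voom, against 5.94% of all tested genes in edgeR. For sex itself 0 of 80 were called against 0.0604% (0 against 0.0713% by FDR alone), with 0 at an unadjusted p under 0.05 in edgeR and limma voom and 1 in DESeq2.

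The medians within the sexes had opposite signs. In females the median log2 fold change was 0.037, with 69 of 80 genes above 0, and in males it was -0.067, with 4 of 80 above 0. Over all tested genes both medians were 0.00, with 50.2% of genes above 0 in females. As the genes vary together, the number on one side of 0 counts mostly the same shift many times. The male value depended on single libraries in both directions. With each library left out in turn the male median ran from -0.113 to -0.016, and -0.016 was the value without WT male replicate 2. The neuron marker term moved the female median to 0.132. Markers of vessels and astrocytes also had medians of opposite sign in the sexes. The 8 endothelial markers were at -1.02 in females (6 called lower) and 0.82 in males (1 called higher), with summed levels of 93.9 to 213 CPM in WT females, 63.9 to 75.6 CPM in WT males and 81.1 to 111 CPM in APP-NL-G-F. The 6 tested pericyte and fibroblast markers were at -0.57 and 0.37, and the 8 astrocyte markers at -0.58 and 0.15. Their part in the shift of the ribosomal protein genes was not tested. Between female and male libraries 73 of 80 genes had values below 0 (female minus male), with a median of -0.038.

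The gene with the smallest p for the difference between the sexes was Rps14, a small-subunit protein. In females it was at 211, 204, 222 and 204 CPM in WT and at 250, 227, 221 and 220 CPM in APP-NL-G-F. In males it was at 253, 264, 240 and 215 CPM in WT and at 231, 233, 221 and 182 CPM in APP-NL-G-F. The groups overlapped in both sexes. Its log2 fold change was 0.13 (SE 0.08) in females and -0.17 (SE 0.08) in males, and the difference of 0.29 (SE 0.11) had an adjusted p of 0.696 by edgeR's quasi-likelihood test. Rpl32 came next with a difference of 0.22 (SE 0.09, adjusted p = 0.763). Its WT male libraries held 330, 352, 296 and 276 CPM, so replicates 1 and 2 were the high ones there, as they were highest for Rps14. On the other side of the interaction stood Rps13 at -0.07 (SE 0.11) and Rps6 at -0.05 (SE 0.10), while Rpl34 at 0.20 (SE 0.11) followed Rpl32 among the positive values.

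Within females the smallest p above 0 belonged to Rpl32l, Rps14 and Rps10, and below 0 to Rps13 at -0.09 (SE 0.08), Rpl24 and Rpl10 at -0.07 (SE 0.06). Within males they belonged to Rpl32l, Rps19 at 0.02 (SE 0.07) and Rps10, and below 0 to Rps14, Rpl32 at -0.14 (SE 0.07) and Rpl10a at -0.11 (SE 0.06). For sex, female minus male, Rpl9 at -0.08 (SE 0.04), Rps21 at -0.09 (SE 0.05) and Rps24 at -0.09 (SE 0.05) came first below 0, and Rpl10a at 0.05 (SE 0.04), Rps29 and Rpl19 above 0. The lowest adjusted p of these sex differences was 0.763 by edgeR's quasi-likelihood test.

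**Figure D2:**
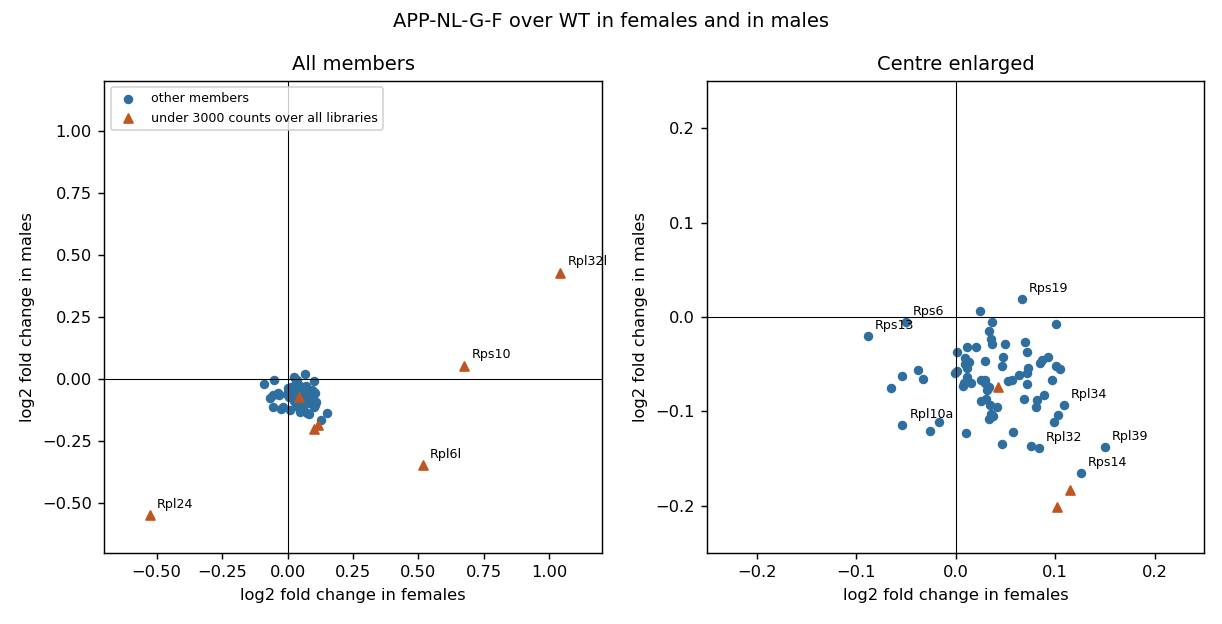
Log2 fold change (APP-NL-G-F over WT) of the 80 genes in females (horizontal axis) and in males (vertical axis), 4 libraries per group, with all genes on the left and the centre enlarged on the right. Triangles mark the 7 genes with under 3000 counts over all libraries; most other points lie right of 0 and below 0, around the medians of 0.037 and -0.067.

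The ribosomal protein genes took 2.00% to 2.57% of all counts. The share was 2.14% ± 0.11 (SD, n = 4) in WT females, 2.36% ± 0.21 in WT males, 2.30% ± 0.07 in APP-NL-G-F females and 2.30% ± 0.06 in APP-NL-G-F males. The extremes were both WT: female replicate 1 at 2.00% and male replicate 2 at 2.57%, followed by male replicate 1 at 2.49%. All 8 APP-NL-G-F libraries, at 2.23% to 2.38%, lay inside the WT range. The 95% interval of each share (Wilson, counting error only) was at most 0.0094 percentage points on either side, so the spread between libraries was far wider than the counting error. WT female replicate 1 had the largest share of mitochondrial counts, 21.7%, against 15.5% to 19.7% in the others. The neuron marker level was low in both extremes, 791 CPM in WT male replicate 2 and 785 CPM in WT female replicate 1. Their microglia marker levels were 30348 CPM, the highest of all libraries, and 28049 CPM in that order. The part of mitochondrial counts and of these markers in the shares was not tested.

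**Figure D3:**
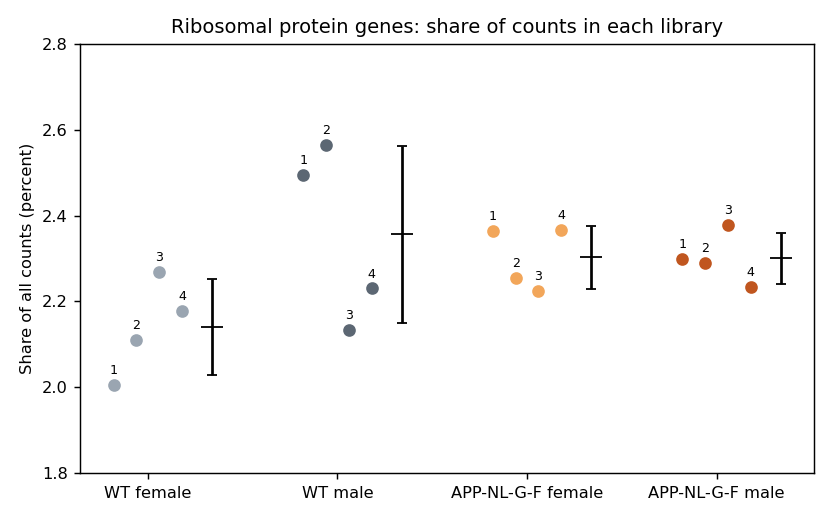
Share of all counts that fell in the 80 genes, in percent, for each library of the 4 groups; numbers are replicate numbers, and the bar beside each group gives the mean and SD of its 4 libraries. The vertical axis starts at 1.8%. The APP-NL-G-F libraries lie between 2.23% and 2.38%, inside the 2.00% to 2.57% of WT.

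Split by replicate number, which follows the numbering of the libraries, WT males were at a mean of 2.53% in replicates 1 and 2 and 2.18% in replicates 3 and 4. WT females went the other way, with 2.06% and 2.22%. Female and male APP-NL-G-F libraries were at 2.31% and 2.29% in replicates 1 and 2, and at 2.30% and 2.31% in replicates 3 and 4. When counts of rRNA and mitochondrial genes were left out of the total, WT males were at 3.14% and 2.78% and WT females at 2.66% and 2.75%. With either total the gap between WT females and WT males was wider in replicates 1 and 2, and in replicates 3 and 4 its direction depended on the total. These means cover 2 libraries each and were not tested.

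The shift between libraries was common to most of the genes. For 73 genes, leaving out the 2 pseudogenes, Rpl24, Rps10, Rpl13a, Rps4l and Rps27l (a choice made after their counts were seen), the mean log2 CPM ran from 7.92 to 8.20. WT male replicate 2 was the highest of the 16 libraries for 56 of these 73 genes. After subtracting group means, the median correlation over pairs of the 73 genes across the 16 libraries was 0.61, against 0.72 among microglia markers, 0.10 among ribosome biogenesis genes and 0.07 among mitochondrial ribosomal protein genes. These correlations share libraries and scaling, and genes with few counts correlate less. The gene that followed the common shift most closely was Rps3, with an SD of 0.034 of its log2 CPM relative to the mean of the 73. Rplp2 and Rps20 came next, both at 0.040. The most variable were Rpl32l at 0.65, Rps10 at 0.55 and Rpl6l at 0.50, all with few counts. Among deeply counted genes Rpl39, a small protein at the exit tunnel of the large subunit, had an SD of 0.195. It stood at 98.9 CPM in WT male replicate 3 and 103 CPM in APP-NL-G-F female replicate 3, against 64.6 to 79.0 CPM in the other 14 libraries. Rps29 was also highest in these 2 libraries, at 242 and 249 CPM in that order, against 165 to 233 CPM in the other 14. These 2 libraries also had the highest share of rRNA counts, 7.96% and 6.22%, against 1.67% to 3.45% in the others, and the part of rRNA was not tested.

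Levels of different genes were compared per length, as TPM, in which counts are divided by the length of the merged exons of each gene and scaled to the same total in each library. Rplp1 was the highest, at 5367 TPM ± 848 (SD, n = 8) in WT; the APP-NL-G-F libraries were at 5540 TPM ± 473. It was followed by Rps23 at 1210 ± 186 and 1239 ± 101, Rps21 at 863 ± 123 and 890 ± 64, Rpl8 at 840 ± 99.7 and 872 ± 57, and Rpl4 at 742 ± 65 and 758 ± 37. Rps21 and Rpl8 did not differ beyond their spread. The median over the 80 genes was 240.4 TPM. With the median transcript length in place of merged exons that median was 560 TPM, and 3 of the 5 highest genes stayed among the 5 highest. With the coding length, used as CPM per kilobase of coding sequence, 2 of the 5 stayed, Rplp1 in first place and Rps23. The order among the high genes therefore depends on the gene model, while Rplp1 was first with all 3 lengths.

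At the low end stood Rpl24 (1.02 TPM ± 0.54 in WT libraries), Rps10 (0.72 ± 0.33), Rpl32l, Rpl6l and Rpl13a (8.63 to 14.6 TPM over all libraries). Rpl24, Rps10 and Rpl13a encode core ribosomal proteins that every ribosome contains. Each shares much of its transcript, on the same strand, with another annotated gene: 71.5% of Rpl24 with Gm28037, 53.6% of Rps10 with Gm49804, and 59.3% of Rpl13a, for the greatest part with Gm45713. All 3 overlapping genes were listed at 0 counts in every library. Reads that fall in 2 genes are often left uncounted by gene counting, so the low values of Rpl24, Rps10 and Rpl13a are uncertain as levels, and how the ambiguous reads were treated was not tested.

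The mouse genome holds many processed copies of ribosomal protein mRNAs. In 62 of the 80 genes more than 50% of the 75-base windows of the coding sequence occurred unchanged elsewhere in GRCm39 and in 26 all of them did, while in Rps3 none did. For the 25 of the 73 deeply counted genes with a copy of every window the median was 549 CPM per coding kilobase in WT, against 703 for the 14 with under 50% copied and 540 for the 34 between. The ranges overlapped, running from 102 to 2284, 310 to 3226 and 221 to 1438. The 2284 is that of Rpl41, whose coding sequence of 75 bases holds 1 window. The median genotype difference was -0.017 for the fully copied and -0.020 for the least copied genes. Strand could matter too, since 20 of the 80 share over 20% of their exonic bases with a gene on the opposite strand, and which strand was counted is not stated. Their median genotype difference was -0.021, against -0.009 for the other 60.

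**Figure D4:**
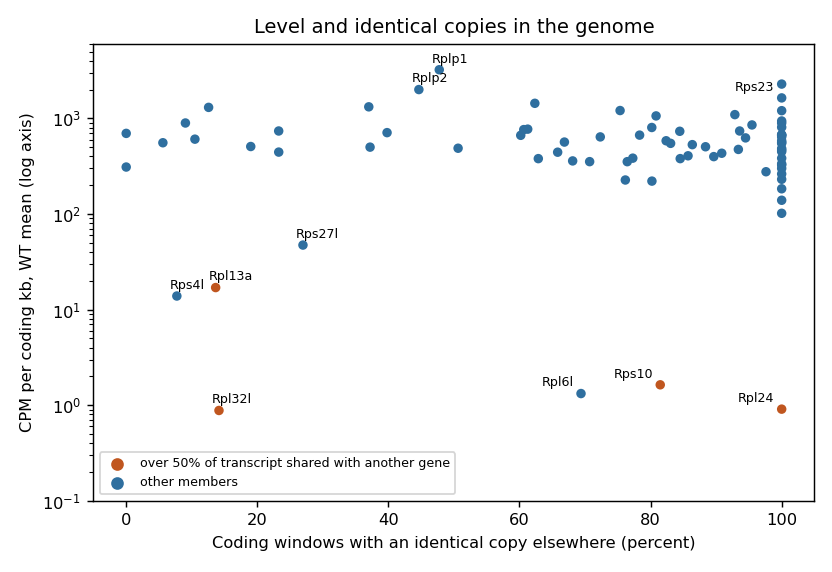
CPM per kilobase of coding sequence (WT mean of 8 libraries, log axis) of each of the 80 genes against the percentage of its 75-base coding windows that occur unchanged elsewhere in the genome. Orange points share over 50% of the transcript with another gene on the same strand, and all 4 lie below 20. The 25 deeply counted genes with all windows copied lie between 102 and 2284, and the 14 with under 50% copied between 310 and 3226. The point at 2284 is Rpl41, whose coding sequence holds 1 window.

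Variant copies of ribosomal proteins were present at low levels. Per coding length and within each library, Rps27l, a paralogue of Rps27 that responds to p53, was at 7.10% ± 0.87 of Rps27 (SD, n = 8 WT libraries), and at 7.31% ± 0.65 in APP-NL-G-F. Rps4l was at 2.45% ± 0.50 of Rps4x (WT), against 2.39% ± 0.30 (APP-NL-G-F). These genes are not copied alike in the genome. An identical copy elsewhere was found for 100% of the coding windows of Rps27 and 27.0% of those of Rps27l. For Rps4x it was 66.9% and for Rps4l 7.7%. The part of these copies in the ratios was not tested. Rps27l gave a genotype log2 fold change of -0.02 (SE 0.07) and Rps4l of -0.05 (SE 0.12). Of the other tested variants outside the naming rule, Rpl7l1, a nucleolar relative of Rpl7, gave -0.04 (SE 0.06), and Rps27rt and Rpl36al, each below 3 CPM in every library, gave 0.14 (SE 0.16) and -0.85 (SE 0.40, adjusted p = 0.199).

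One paralogue outside the naming rule did differ between genotypes. Rpl22l1 (chromosome 3, 28859585 to 28861573, plus strand) encodes a paralogue of Rpl22 that can take its place in the large subunit. In WT it was at 50.7, 62.9, 30.5 and 35.3 CPM in females and 26.7, 27.0, 29.7 and 27.9 CPM in males. In APP-NL-G-F it was at 17.6, 22.1, 20.1 and 22.5 CPM in females and 16.1, 16.6, 23.2 and 22.9 CPM in males. All 8 APP-NL-G-F libraries lay below all 8 WT libraries, and WT female replicates 1 and 2 were the highest. The immediate early genes were also at their highest in WT females, at 12427 to 16330 CPM against 7016 to 8381 CPM in WT males, and their part was not tested. It fell by 0.81 on the log2 scale (SE 0.15, adjusted p = 0.0019) and passed both thresholds in 28 of 29 alternative fits. The exception was the neuron marker term, with -0.50 and an adjusted p of 0.20. Rpl22l1 gave -1.12 in females (adjusted p = 0.0014) and -0.49 in males (adjusted p = 0.301), and the interaction had an adjusted p of 0.734. The neuron marker term lowered the calls over all genes from 1574 to 184. Rpl22 itself was at 317 to 398 CPM in WT (median 331) and 304 to 367 CPM in APP-NL-G-F (median 339), with a log2 fold change of -0.02 (SE 0.05). Rpl22l1 was the 1 gene called among 6 tested genes on the list of variants, and it is named here with earlier results of these data known.

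The genes that make and control ribosomes were described as lists beside the ribosomal proteins. Of 45 ribosome biogenesis genes 1 was called lower and 0 higher, with a median of -0.048. The called gene was Gnl3 (chromosome 14, 30734389 to 30741364, minus strand), which encodes nucleostemin, a nucleolar GTPase. It was at 39.8 to 53.0 CPM in WT (median 45.3) while all 8 APP-NL-G-F libraries lay lower, at 39.4 CPM or less (median 29.1). It fell by 0.56 on the log2 scale (SE 0.10, adjusted p = 0.0023), and was called in 28 of 29 alternative fits, again all but the neuron marker term (-0.44, adjusted p = 0.13). FDR alone, without the fold change threshold, found 7 of the 45 lower and 1 higher, or 17.8% of the list beside 14.8% of all tested genes. Among those lower were Nmd3, the export adaptor of the large subunit, at -0.33 (SE 0.07), and Fbl, the rRNA methylase fibrillarin, at -0.22 (SE 0.07). For the lists that follow, the share found by FDR alone was at most 14.3%, against the same 14.8%.

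Of 15 genes of RNA polymerase I, which transcribes the rRNA precursor, 0 were called (2 lower by FDR alone, median -0.022), with Taf1d at -0.39 (SE 0.06, adjusted p = 0.00085) and Polr1h at -0.26 (SE 0.09, adjusted p = 0.092). Of 28 genes of mTORC1 and translational control 0 were called, with 2 higher and 2 lower by FDR alone and a median of -0.047. Flcn, which takes part in amino acid sensing, was at -0.26 (SE 0.07) and Rragd, a Rag GTPase, at 0.23 (SE 0.06). Of 23 translation factors and other genes of the TOP class 0 were called, 2 were lower by FDR alone and the median was -0.019. These 2 were Eif4a2, an RNA helicase of translation initiation, at -0.26 (SE 0.06), and Hnrnpa1 at -0.21 (SE 0.06). The list had medians of 0.011 in females and -0.073 in males.

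Of 11 transcription factors linked to ribosomal protein promoters 0 were called, with a median of -0.059 and 1 lower by FDR alone, Zbtb7a at -0.14 (SE 0.04). Gabpb1, a subunit of the GA-binding protein, gave -0.12 (SE 0.06, adjusted p = 0.194). Of 18 ribosome chaperone and import genes 0 were called, and Usp16, a deubiquitinase, was the 1 gene lower by FDR alone (-0.32, SE 0.06), with libraries that did not overlap. Ube2o, with 0.17 (SE 0.07), missed that limit. Of 77 mitochondrial ribosomal protein genes 0 were called, and the median was -0.012. Mrps35 was higher (0.21, SE 0.07) and Mrpl41 lower (-0.31, SE 0.10) by FDR alone. Of 10 Rps6k kinase genes 0 passed either limit, and Rps6ka2 (0.21, SE 0.08) and Rps6ka6 (0.50, SE 0.25) had the smallest p.

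Of the ribosomal proteins with other names, Rps3a1 gave 0.01 (SE 0.05), Fau 0.01 (SE 0.06) and Rack1 -0.02 (SE 0.05). Of 322 pseudogenes marked -ps, 69 were tested, 1 was called lower and the median was 0.014. Their reads cannot be told apart from those of the parent genes where the sequences are identical.

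**Figure D5:**
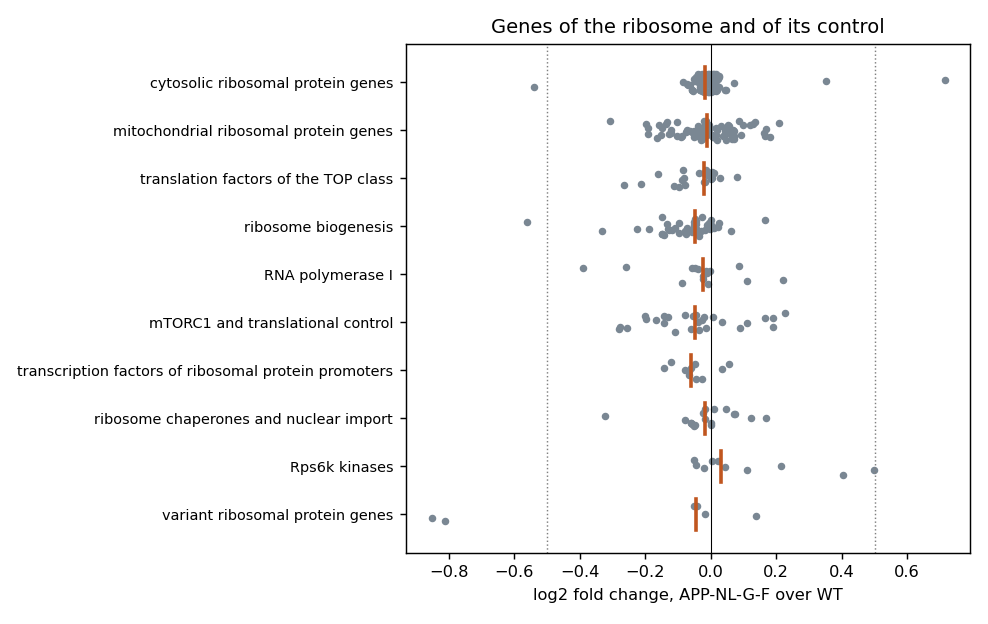
Log2 fold change between APP-NL-G-F and WT (horizontal axis, 8 libraries each) of each tested gene in the ribosomal protein list and 9 related lists; each point is a gene, the orange bar is the list's median and dotted lines mark 0.5 in both directions. The 2 called genes are Rpl22l1, at -0.81 among the variants, and Gnl3, at -0.56 among the biogenesis genes; Rpl36al, at -0.85 among the variants, missed the FDR limit.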

How the data were processed

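Per the labels and the study's methods, the authors prepared stranded, rRNA-depleted libraries, used STAR for the alignment of paired reads (GRCm39, annotation gencode vM32, human App added), and deposited raw counts per gene; the strand setting is not given in the sources used here. A mention of technical replicates has no columns of its own. Counts of 57010 genes in 16 libraries (9052932 to 18117286 counts each) were filtered at 5 counts in 8 libraries, which left 18227 genes. TMM scaling and edgeR 4.0.16 quasi-likelihood tests (R 4.3.3) were used: genotype with sex as a term, and 4 groups for contrasts within a sex and for genotype by sex. Calls needed an FDR (Benjamini-Hochberg over all tested genes) under 0.1 and a log2 fold change beyond 0.5. Each standard error was taken from the fold change and its F statistic, CPM uses TMM-scaled totals, log2 CPM has a prior count of 2, and deposited counts limit precision as the intervals show. Exact permutations exchange genotype within sex. Scripts were tested on simulated data. Lengths, overlaps and copies came from GRCm39 with gencode vM39 (97.7% of tested genes matched), taking the consensus coding transcript of each gene where there is one, and promoters from RefSeq (GRCm38.p6), placed on GRCm39 by exact match. Alternatives were other scalings, filters, thresholds and tools (DESeq2 1.42.0, limma 3.58.1), terms for replicate number, library order and neuron markers, and leaving out each library.

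Members, lists and tests were chosen with earlier results of these data known. Genes were named by rule: called members, those of smallest p in each direction per comparison, the highest and lowest levels, the most and least variable, fixed genes of known role, and per related list up to 4 called genes or else the 2 of smallest p. Nmd3, Fbl, Rpl36al and the libraries singled out were named after their values were seen. Some items of the gene lists are not reported here.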

Additional observations from a re-analysis of the deposited data

Results flagged for a closer look

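Within groups of 4 libraries, 10 of 168 sets of values (the share of counts and 41 named genes in each group) had 1 library farther from the rest than Dixon's test allows at 95%; chance gives about 8.4. The number given is the gap to the nearest library over the group's range, on log2 CPM.

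In APP-NL-G-F male replicate 3 the highest value stood apart for Rplp2 (0.842), Rps13 (0.873), Rps18 (0.862), Rps19 (0.931) and Rps4x (0.909). The mean log2 CPM of the 73 deeply counted genes was 8.10 in that library, against at most 7.99 in the other 3 of its group. In APP-NL-G-F female replicate 1 the highest value stood apart for Rpl19 (0.861) and Rps4x (0.863).

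Rpl39 was apart in APP-NL-G-F female replicate 3 (0.931) and Rps20 in WT female replicate 3 (0.881). Rpl6l was apart, as the lowest value, in WT male replicate 3 (0.882), from few counts.

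The interaction test called 0 of 80 ribosomal protein genes at an FDR below 0.1. Its estimates (female minus male genotype difference) had a median of 0.109 on the log2 scale, with 78 of 80 genes above 0. As the genes vary together, that number counts mostly the same shift many times. The 95% interval of the estimate lay within 0.25 of 0 for 6 genes and within 0.5 for 72. Over both sexes 74 genes had a genotype interval within 0.25, so differences between the sexes were bounded less closely.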

How the results depend on the processing

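In all 5 comparisons the number of ribosomal protein genes called was 0 in each alternative fit and without each library in turn. At an FDR below 0.1 without the fold change threshold the 1 exception was Rpl10a without APP-NL-G-F male replicate 3 (over both sexes and in males), with a lowest adjusted p of 0.0842. The median genotype difference ran from -0.019 to 0.052 over the alternatives and from -0.027 to 0.022 over libraries left out. The female median ran from 0.036 to 0.132 and from 0.029 to 0.077, where 0.132 came from the neuron marker term, and the male median from -0.074 to -0.014 and from -0.113 to -0.016. The log2 ratio of the shares of counts was 0.03, and 0.01 to 0.06 without single libraries. The median level was 240.4 TPM and 560 TPM with the median transcript length. Replicate numbers were not treated as pairs: same-numbered deviations of the genotypes correlated at 0.05 to 0.13 in females and -0.33 to 0.02 in males. So few values cannot decide whether the samples were paired. With the replicate block the medians were -0.016, 0.037 and -0.064, and 0 genes were called. Calls over all genes in males were 46, and 268 in DESeq2, 84 in limma voom, 141 with library order, 880 without a filter, 8 with the neuron marker term and 5 to 603 without single libraries (females 1304, and 594 to 2110; both sexes 1574, and 1101 to 2187). Of 5731 fitted values of named genes under alternatives, 289 changed sign, none of them called. The few counts of Rpl24, Rps10, Rpl6l and Rpl32l limit their values.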
